A study of Bos taurus with 7 samples.

Results

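The miR-30 family was examined in plasma drawn from 7 Japanese-Black cows (Bos taurus). Its members were chosen by name, as every bovine miRNA on the array called bta-miR-30 followed by a letter from a to f, which gave 7 of the 744 miRNAs measured, through 15 of 1617 probes. Within the family bta-miR-30d was singled out on its detection and level in these same arrays, so its levels and its difference between the groups are given as a description and support nothing beyond these cows. All 7 cows had controlled estrus and were artificially inseminated, and plasma was taken on day 21 after insemination. There were 4 pregnant cows (numbered 1 to 4) and 3 non-pregnant cows (numbered 1, 3 and 4), each on its own 1-colour microarray. The non-pregnant cows had been inseminated as well, so the groups differ in pregnancy status alone as far as the labels say, which give no age and no parity.

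miR-30 miRNAs are short RNAs, and all members here but miR-30b-3p, from the other strand of its hairpin, share a seed. The seed is the stretch near the 5′ end by which a miRNA recognises its target messenger RNAs. Members that share it differ in the bases behind it. The family is known for restraining epithelial-mesenchymal transition and autophagy genes. miR-30d is also known in the uterus, where it is secreted by the lining into uterine fluid and can be taken up by the early embryo. Plasma miRNAs come from many tissues and travel in vesicles or bound to proteins, so release by more cells and more release per cell cannot be told apart here.

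The array reads each member through nested probes that pair with its 3′ part, and the miR-30 probes fall into 2 sequence groups plus the 3p arm of miR-30b. The probes of miR-30a-5p, miR-30d and miR-30e-5p are shown first because they differ by the fewest bases. They begin with the same 11 bases, agcttccagtc, which no other miRNA's probes on the array hold. Each sequence is given 5′ to 3′. Capitals mark the last base of the longer miR-30d probe, which its shorter probe lacks, and in miR-30a-5p and miR-30e-5p the bases that differ from miR-30d.
miR-30d, 14 nucleotides: agcttccagtcggg
miR-30d, 15 nucleotides: agcttccagtcgggG
miR-30a-5p, 14 nucleotides: agcttccagtcgAg
miR-30a-5p, 15 nucleotides: agcttccagtcgAgg
miR-30e-5p, 15 nucleotides: agcttccagtcAAgg
miR-30e-5p, 16 nucleotides: agcttccagtcAAgga

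Counted from the probe's 5′ end, the 15-nucleotide probes of miR-30d and miR-30a-5p differ by the single substitution G13A, and those of miR-30d and miR-30e-5p by G12A and G13A. The longest probes of the other sequence group and of the 3p arm are shown because 1 of them, that of miR-30b-5p, gave the family's only other detected signal. They are in lower case throughout, since no base in them is compared.
miR-30b-5p, 18 nucleotides: agctgagtgtaggatgtt
miR-30c, 18 nucleotides: gctgagagtgtaggatgt
miR-30f, 17 nucleotides: agctgagagtgtagggt
miR-30b-3p, 18 nucleotides: aagtaaacatccacctcc

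The genes of the family lie in 3 pairs. On the bovine assembly UMD 3.1 (bosTau6), the array design lists the longer miR-30d probe at chr14:8080307-8080320 and the longest miR-30b-5p probe at chr14:8084741-8084758, with a second chromosome 14 site listed for the latter. The longer probes of miR-30e-5p and miR-30c are listed at chr3:106062517-106062531 and chr3:106059389-106059405. Those of miR-30a-5p and miR-30f are listed at chr9:10768292-10768305 and chr9:10730950-10730965. For 12 of the 15 probes, all but the 3 of miR-30b-5p, the listed interval is 1 position shorter than the probe, so the first or last position may be off by 1. In the RefSeq annotation of another assembly, ARS-UCD2.0, MIR30C and MIR30E both lie within NFYC, a subunit gene of the transcription factor NF-Y. There MIR30D, MIR30B and MIR30F overlap no other annotated gene.

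miR-30d was the one member of the family detected in most cows. The scanner software called it detected on 6 of 7 arrays, which left out non-pregnant 1 alone: 4 of 4 pregnant cows had it, and 2 of 3 of the others. miR-30b-5p, whose gene is the neighbour of the miR-30d gene, was called detected in pregnant 2 alone. miR-30a-5p, miR-30b-3p, miR-30c, miR-30e-5p and miR-30f were detected on none of the 7 arrays. Of the 7 members, 2 were thus detected on at least 1 array and 1 on at least 3 arrays. By array, 1, 2, 1 and 1 members were detected in pregnant 1 to 4, and 0, 1 and 1 in non-pregnant 1, 3 and 4. Detection is here the software's call that a miRNA's signal exceeded 3 times its error.

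**Figure D1:**
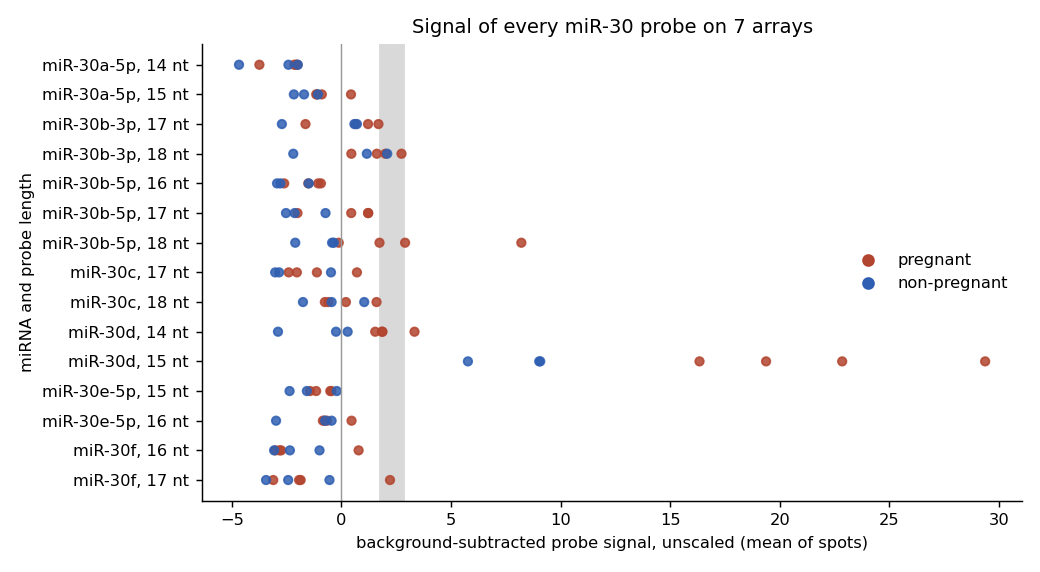
Unscaled background-subtracted signal (x axis, arbitrary intensity units) of each of the 15 miR-30 probes (y axis), 1 point per array, red for pregnant and blue for non-pregnant cows. The grey band spans the array means of the negative-control spots, 1.76 to 2.85. The 15-nucleotide miR-30d probe lies to the right of the band on all 7 arrays, from 5.77 to 29.4, and of the remaining points the one farthest to the right is the 18-nucleotide miR-30b-5p probe in pregnant 2, at 8.21.

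Apart from the longer miR-30d probe, the family's probes gave signals near or below those of the negative controls, spots with no bovine target. Their 98 probe means, from 14 probes on 7 arrays, ran from -4.68 to 8.21, with 68 below 0 after background subtraction. Of these means, 5 exceeded the negative-control mean of their own array. A level of a member whose probes read below 0 has only a bound, so no fold change is given for any member other than miR-30d.

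The highest of these means belonged to miR-30b-5p. Its 18-nucleotide probe read -0.12, 8.21, 2.90 and 1.74 in pregnant 1 to 4 and -0.35, -0.43 and -2.11 in non-pregnant 1, 3 and 4. Pregnant 2 stood above every other array. The groups did not overlap, but pregnant 1 and non-pregnant 1 both lay below 0 and differed by less than their SDs over spots, 0.909 and 1.88. How often probes this dim separate the groups was not counted. In pregnant 2 the 6 spots of this probe ran from 3.55 to 11.5, and 3 of them were well above background by the software's flag per spot. In pregnant 4 the 6 spots ran from -5.88 to 8.38, so its mean of 1.74 had a spot SD of 6.40. The 17-nucleotide probe of miR-30b-5p reached 1.22 in pregnant 2 and the 16-nucleotide probe -0.94, neither with any spot well above background.

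None of the spots of the 5 undetected members was well above background on any array. The probe means of miR-30a-5p, the member 1 base away from miR-30d in the probed stretch, ran from -4.68 to 0.44. Those of miR-30e-5p, 2 bases away, ran from -2.98 to 0.46. miR-30c ran from -3.02 to 1.60 and miR-30f from -3.44 to 2.21. miR-30b-3p, the other strand of the miR-30b hairpin, ran from -2.72 to 2.74. For miR-30a-5p and miR-30e-5p no array gave a probe mean above that array's negative controls, including the arrays where the miR-30d probe read highest.

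The signal of miR-30d came from 1 of its 2 probes. The 15-nucleotide probe read 16.3, 29.4, 22.9 and 19.4 in pregnant 1 to 4 and 5.77, 9.07 and 9.03 in non-pregnant 1, 3 and 4. Every pregnant cow was above every non-pregnant cow on this unscaled signal. The gap lay between 9.07 in non-pregnant 3 and 16.3 in pregnant 1. All 10, 10, 9 and 10 unflagged spots were well above background in pregnant 1 to 4. In non-pregnant 3 and 4 this held for 8 of 10 and 5 of 10 spots, and in non-pregnant 1 for 0 of 8. The SD over spots ran from 0.753 to 4.67 per array, and spots of 1 array share their RNA, so it measures the reading and not the cow.

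**Figure D2:**
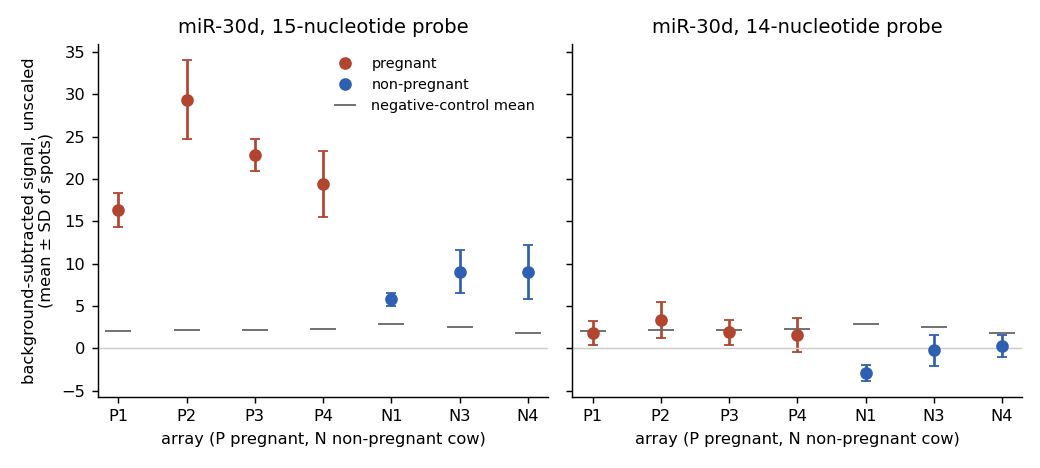
Unscaled signal (y axis, mean ± SD over the spots of 1 array) of the 15-nucleotide probe (left) and the 14-nucleotide probe (right) of miR-30d on each array (x axis), red for the 4 pregnant and blue for the 3 non-pregnant cows, with short grey lines at each array's negative-control mean. On the left the pregnant cows lie between 16.3 and 29.4 and the non-pregnant cows between 5.77 and 9.07, while on the right the highest mean is 3.33.

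On the log2 scale the longer probe averaged 4.42 ± 0.36 (SD, n = 4) among pregnant cows, against 2.96 ± 0.37 (SD, n = 3) among the others. The difference of 1.46 corresponds to 2.76-fold, and to between 2.37-fold and 3.02-fold with any 1 array left out. It was lowest without non-pregnant 1, the array on which none of the probe's spots was well above background. Every pregnant cow was above every non-pregnant cow for 11 of the 119 probes well above background on at least 3 arrays, 9.24% of them. miR-30d thus shared the pattern with probes of 8 other miRNAs.

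The 14-nucleotide probe, which lacks the last G, was not well above background at any spot. It read 1.85, 3.33, 1.87 and 1.54 in pregnant 1 to 4 and -2.90, -0.25 and 0.28 in non-pregnant 1, 3 and 4. These readings did not overlap between the groups either, but pregnant 2 was the one array on which the probe exceeded the negative-control mean. The share of such dim probes that separate the groups was not counted. A single working probe was common on this array. Of the 88 miRNAs called detected on at least 3 arrays, 30 had exactly 1 probe well above background on any array, and in 27 of the 30 it was the longest probe.

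The software's signal per miRNA, which leaves out probes it did not detect, showed the same order. It was 10.8, 19.5, 15.2 and 12.9 for miR-30d in pregnant 1 to 4, with software errors of 1.5, 2.3, 2.0 and 1.9. The signal was 6.02 in non-pregnant 3 and 5.99 in non-pregnant 4, with errors of 1.20 and 1.30, while non-pregnant 1 held the software's placeholder of 0.1 for an undetected miRNA. The groups did not overlap. Every pregnant cow was above every non-pregnant cow for 13 of the 88 tested miRNAs, 14.8%. The opposite order was not counted. In the authors' deposited table of log2 values miR-30d stood at 6.76, 7.61, 7.24 and 7.01 in pregnant 1 to 4 and at 5.91 and 5.90 in non-pregnant 3 and 4, with a blank for non-pregnant 1. Those values equal log2 of the software's signal plus 3.32 and carry no scaling between arrays. For miR-30b-5p the table held 1 value, 5.03 in pregnant 2.

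The groups of the longer probe overlapped once its signal was scaled between arrays. Each array was divided by the 75th percentile of its signal over the 57 probes well above background on all arrays. That divisor was 606, 442, 1645 and 415 in pregnant 1 to 4 and 172, 1052 and 819 in non-pregnant 1, 3 and 4, so it spanned a wider range on the log2 scale, 7.43 to 10.7, than the miR-30d signal, 2.53 to 4.88. After division the longer probe stood at log2 -5.21, -3.91, -6.17 and -4.42 in pregnant 1 to 4 and at -4.90, -6.86 and -6.50 in non-pregnant 1, 3 and 4. Non-pregnant 1, the lowest array before division, lay above pregnant 1 and pregnant 3 after it. Of the 4 pregnant cows, 2 exceeded every non-pregnant cow.

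**Figure D3:**
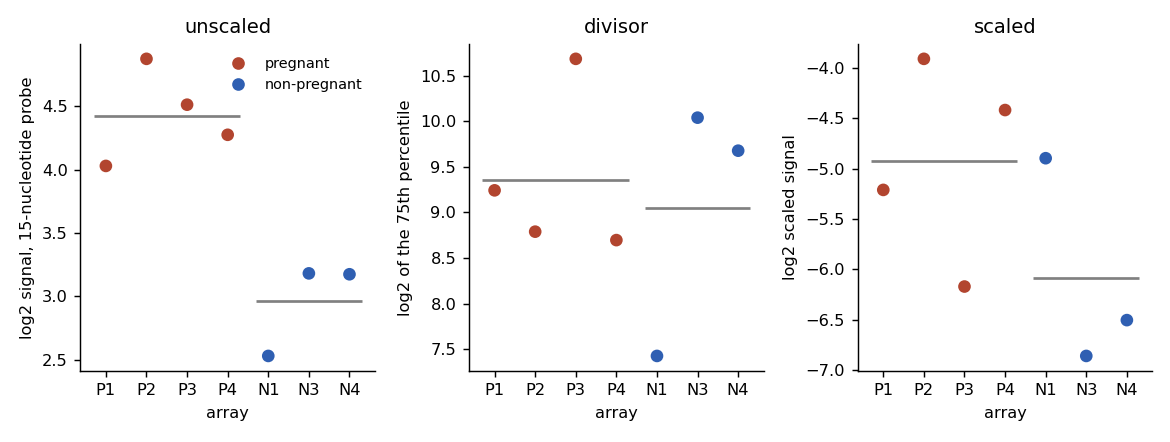
Log2 signal of the 15-nucleotide miR-30d probe before scaling (left), log2 of the 75th percentile by which each array was divided (middle) and log2 signal after division (right), 1 point per array and a grey line at each group mean. The unscaled groups are apart, at means of 4.42 and 2.96, and the scaled groups overlap, at means of -4.93 and -6.09.

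The scaled longer probe averaged -4.93 ± 0.99 (SD, n = 4) among pregnant cows, against -6.09 ± 1.04 (SD, n = 3) among the others. Their difference of 1.16, or 2.23-fold, was about the size of the spread between cows. With 1 array left out it ran from 0.77, without non-pregnant 3, to 1.75, without non-pregnant 1. On the scaled signal every pregnant cow was above every non-pregnant cow for 3 of the 119 probes, 2.52%. The miR-30d probe was not among them. Division by the 75th percentile of the 3 probes of low GC content well above background on all arrays left a difference of 0.046. The means were -3.13 ± 0.54 (SD, n = 4) for pregnant cows and -3.18 ± 0.43 (SD, n = 3) for the others. This divisor was itself higher on average in pregnant cows. It was 92.6, 278, 181 and 269 in pregnant 1 to 4 and 42.1, 72.7 and 114 in non-pregnant 1, 3 and 4.

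When each miRNA's level was taken as the mean of its probes on the scaled log2 scale, miR-30d did not pass the threshold of the fit over all 88 tested miRNAs. Since miR-30d was singled out on these arrays, its p-values from this fit describe its place among the 88 and are no independent test. Values under a floor of log2 -6.36, the median over arrays of the lowest detected probe, were first raised to it. The longer probe in non-pregnant 3 and 4 was raised in this way, from log2 -6.86 and -6.50. Both values lay above the lowest detected probe of their own array. The level of miR-30d was -5.79, -5.14, -6.27 and -5.39 in pregnant 1 to 4, -5.63 in non-pregnant 1, and at the floor in non-pregnant 3 and 4. The pregnant mean was -5.65 ± 0.49 (SD, n = 4) and the non-pregnant mean -6.12 ± 0.42 (SD, n = 3). limma put the difference at 0.47 (SE 0.33), with a 95% interval of -0.32 to 1.26 (adjusted p = 0.743). It was the 18th smallest p of 88, and 0 of the 88 miRNAs passed, 0%, with 1 at an unadjusted p under 0.05. Exact permutation tests over the 35 ways to divide the arrays into 4 and 3 called 0, and 0 at an unadjusted p under 0.05. Their p cannot fall below 1 in 35, so after adjustment over 88 miRNAs they could hardly call any.

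Without scaling, the same average stood at 3.56, 3.98, 3.80 and 3.68 in pregnant 1 to 4 and at 3.09, 3.14 and 3.13 in non-pregnant 1, 3 and 4, next to the floor of 3.09. The difference was 0.64 (SE 0.11), with a 95% interval of 0.37 to 0.90 (limma, adjusted p = 0.101). miR-30d had the smallest p of the 88, and limma again called 0 of 88, 0%, with 10 at an unadjusted p under 0.05. That rank changed with the floor. With the floor halved miR-30d ranked 7 (SE 0.26, limma, adjusted p = 0.305), and with the floor doubled it ranked 12 (limma, adjusted p = 0.947). The exact permutation test, whose p again cannot fall below 1 in 35, called 0, with 4 at an unadjusted p under 0.05. Without pregnant 1 the difference was 0.70 and 3 miRNAs were called, miR-30d among them (limma, adjusted p = 0.0220).

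Averaging in the 14-nucleotide probe, which sat at the floor on all 7 arrays, halved the floored difference read by the longer probe. With the longer probe alone, a choice made after the values were seen, the unscaled floored difference was 1.28, SE 0.21 (limma, adjusted p = 0.0830). The scaled floored difference was 0.95, SE 0.64 (limma, adjusted p = 0.769). The software's signal per miRNA, scaled by its own 75th percentile, gave 1.73, SE 0.51 (limma, adjusted p = 0.310), with non-pregnant 1 entered at the floor. On that scale every pregnant cow, at log2 -4.84, -3.89, -5.47 and -4.24, was above non-pregnant 3 and 4, at -6.26 and -5.81. The -6.96 of non-pregnant 1 was the floor, the lowest value this scale allows, and no reading. With floored values counted, every pregnant cow was above every non-pregnant cow for 10 of the 88 miRNAs, 11.4%, miR-30d among them. Normexp background correction was run with an offset of 50, added to every spot before division. It gave a difference of -0.15, SE 0.42 (limma, adjusted p = 0.967). The longer miR-30d probe read 5.77 to 29.4 after the software's background subtraction, less than that offset on every array.

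**Figure D4:**
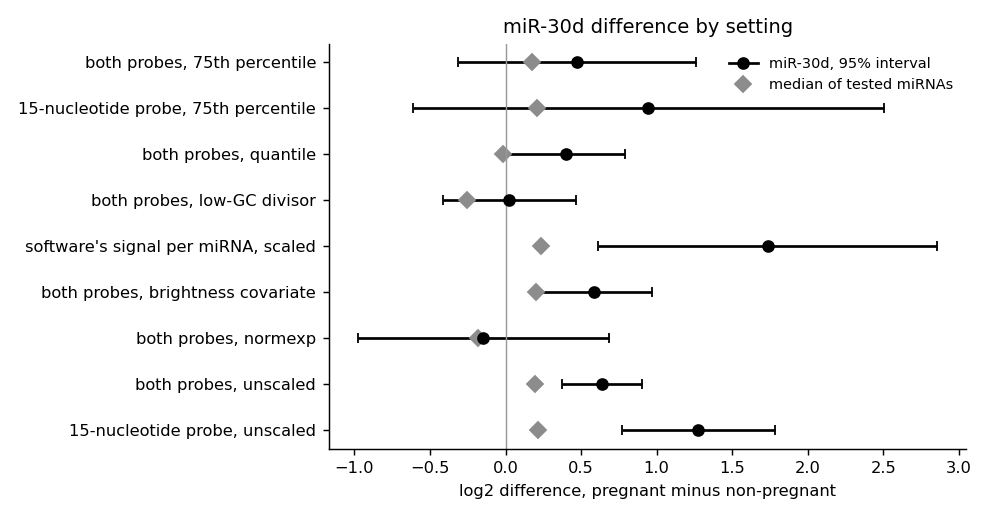
Log2 difference of miR-30d, pregnant minus non-pregnant (x axis), with limma's 95% interval under 9 ways of making its level (y axis), beside the median difference of all tested miRNAs (grey diamonds). miR-30d lies above 0 in 8 of the 9 and at -0.15 with normexp, and its size runs up to 1.73 with the software's signal per miRNA.

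All tested miRNAs moved with the scaling too. Their median difference was 0.18 in the scaled levels, 0.20 without scaling, -0.017 with quantile scaling, -0.26 with the low-GC divisor, -0.19 with normexp and 0.24 with the software's signal per miRNA. Relative to that median, miR-30d stood 0.30, 0.44, 0.41, 0.28, 0.038 and 1.5 higher in the same order.

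The arrays differed in ways that move with these readings. The number of miRNAs detected was 90, 93, 101 and 91 in pregnant 1 to 4 and 45, 84 and 81 in non-pregnant 1, 3 and 4. Of the 88 tested miRNAs, 35 were, like miR-30d, detected in every pregnant cow and in at most 2 of the 3 others, and 30 of the 35 were missing from non-pregnant 1 alone. The miR-30d signal was a minor part of each array, between 0.00855% and 0.0567% of the summed signal where it was detected. On the slide, row 1 held every pregnant cow and row 2 every non-pregnant one, and the effects of position and pregnancy cannot be told apart.

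On the unscaled scale miRNAs of blood cells also read higher in most pregnant cows, while those of liver overlapped more. Most tested miRNAs had a higher mean unscaled level in pregnant cows, 76 of 88 or 86.4%. The summed signal of the red-cell list, 7 of 8 detected and miR-144 not, was 155 to 233 in pregnant and 60.9 to 164 in non-pregnant cows. For leukocytes, with 3 of 7 detected and miR-142-3p, miR-155, miR-146a and miR-181a not, the sums were 143 to 423 and 55.9 to 170. For platelets, with 5 of 7 detected and miR-126-5p and miR-191 not, they were 188 to 460 and 86.5 to 213. The leukocyte and platelet lists both hold miR-223, so their sums share a member. For liver, with 4 of 5 detected and miR-194 not, they were 10.0 to 51.2 and 3.26 to 26.1. In the red-cell, leukocyte and platelet lists 3 of 4 pregnant cows exceeded every non-pregnant cow, and in the liver list 2 of 4. Their part in the miR-30d reading was not tested.

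No other miR-30 member was detected on at least 3 arrays, so every miRNA compared with miR-30d was of another family. The 5 whose unscaled level followed that of miR-30d most closely over the 7 arrays are listed here. They were miR-19b of the miR-17-92 cluster (Pearson's r = 0.93, Spearman's rho = 0.96), miR-25 of the related MCM7 cluster (0.91 and 0.96), miR-27b (0.89 and 0.93), miR-27a-3p (0.87 and 0.89) and let-7g (0.87 and 0.89). The median r of the 87 miRNAs compared was 0.22. On the scaled levels they were miR-29a (0.99 and 0.99), miR-25 (0.98 and 0.99), the red-cell miRNA miR-451 (0.98 and 0.92), miR-27b (0.96 and 0.97) and miR-423-5p (0.95 and 0.85), with a median r of 0.67. The scaled levels share their array's divisor, and many levels sit at the floor on either scale. In the unscaled list miR-27b and let-7g did so on 3 of 7 arrays each and miR-27a-3p on 1. In the scaled list miR-27b did so on 3 and miR-451 on 2. Unscaled, miR-30d itself lay at or next to the floor in every non-pregnant cow. The correlations thus describe likeness over 7 arrays and were not tested. miR-25 and miR-27b stood among the 5 closest on both scales.

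The let-7 and miR-29 families were read by more of their members. The array holds 9 let-7 miRNAs, and 6 of them were called in some cow, 3 on at least 3 arrays. Of 5 miR-29 miRNAs, 3 were detected on at least 3 arrays, with miR-29a on all 7. For miR-30 the counts were 2 and 1 of 7, chosen by name and including miR-30b-3p. Whether these shares differ between families was not tested.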

How the data were processed

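Plasma RNA of 4 pregnant and 3 non-pregnant cows (50 ng each, labelled with Cy3, per the labels' protocols) was read on 1-colour arrays. Per the file headers, the authors used Agilent Feature Extraction 11.0.1.1, with spot intensity deposited after background subtraction within each array and not scaled between arrays, and intensity per miRNA set to 0.1 where undetected. The authors' deposited table holds log2 values and was used as an alternative.

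Control spots and outlier flags (558 to 1149 spots per array) were removed, and 0 spots were saturated. Each probe's spots were averaged and divided by the array's 75th percentile over 57 probes well above background on all arrays (over 50% of spots), floored at 0.0122 (the median over arrays of the lowest detected probe), put on the log2 scale and averaged over a miRNA's probes. The unscaled floor was 8.52. limma 3.58.1 in R 4.3.3 compared the groups, two-sided, over the 88 miRNAs detected on at least 3 arrays, with Benjamini-Hochberg adjustment at 0.05. The procedure was tested on simulated data.

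Members and lists were chosen with earlier results of these data known. Named were all 7 members, the 5 miRNAs of highest r to miR-30d on each scale, and let-7, miR-29 and the marker lists as counts. Alternatives changed the scaling, background correction, probe summary, spots, flags, floor, filter, variance model and test, added brightness or cow number to the model, and dropped arrays 1 at a time. Cows of the same number in both groups were treated as separate animals, which the labels do not settle, and the number of arrays limits the precision.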

Additional observations from a re-analysis of the deposited data

Results flagged for a closer look

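In 20 readings over the 4 pregnant arrays, a lone array was sought that lay away from the rest, and 4 had one, where chance alone gives about 1 in 20. All 4 were probes of members detected in no cow. The 14-nucleotide probe of miR-30a-5p read -3.75 in pregnant 3 and between -2.15 and -2.01 in the others. Its 15-nucleotide probe read 0.435 in pregnant 1, against -1.15 to -0.897. The 16-nucleotide probe of miR-30e-5p read 0.461 in pregnant 2, against -0.848 to -0.658. The 16-nucleotide probe of miR-30f read 0.783 in pregnant 3, against -3.02 to -2.75. All 4 readings lay below the negative-control mean of their array. None of the miR-30d readings checked stood apart in this way.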

How the results depend on the processing

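The scaled miR-30d difference of 0.47 kept its direction and stayed short of the threshold under 16 of 17 alternatives (0.026 with the low-GC divisor to 1.73 with the software's signal) and with each array left out (0.30 to 0.72). It was -0.15 with normexp background correction, whose offset of 50 exceeded the longer miR-30d probe's signal on every array. The cause was not tested. The unscaled difference of 0.64 kept both under 8 alternatives (0.17 with the floor doubled to 1.28 with the longer probe alone) and ran from 0.56 to 0.70 with an array left out, passing without pregnant 1 alone. The longer probe's scaled difference of 1.16 was 1.16 with spot medians, 1.46 unscaled, 0.77 to 1.75 with an array left out and 0.046 with the low-GC divisor, which moved it by more than the spread between cows. The count of detected members was 2, but 1 when a probe needed over 50% of its spots well above background, and 1 to 2 with an array left out, the 1 being without pregnant 2. No miRNA was called under any of the 18 alternatives to the scaled fit, which include no scaling, the deposited table and the exact permutation test, nor with an array left out of the scaled fit. The exact permutation test could hardly call any, since its p cannot fall below 1 in 35. Differences above 0 were found for 62 of 88 miRNAs in the scaled levels, 76 without scaling, 39 with quantile scaling, 54 with the software's signal, 7 with the low-GC divisor and 8 with normexp.

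With cow number as a replicate block the miR-30d difference was 0.30 scaled (limma, adjusted p = 0.820) and 0.56 unscaled (limma, adjusted p = 0.0924). The block gave 0 calls scaled and 1 unscaled, against 0 without it. Deviations of same-numbered cows correlated at 0.094, 0.65 and -0.20. These values are too few to settle whether same-numbered cows are paired, and the cows were treated as unpaired. Scaling on all probes could not be run, since that percentile was below 0 (-0.29) on 1 array, and the filter for detection on all 7 arrays leaves out miR-30d. Depth is signal over background here: detected probes reached down to 7.36 to 9.95 per array, and the longer miR-30d probe lay under its own array's value in non-pregnant 1 alone.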
